A study of Mus musculus with 29 samples.

Results

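The comparison sets uninjured Gli1-lineage cells against wild type Pdgfra-lineage cells, both sorted from the mouse common bile duct, and takes 8 of the series' 29 RNA-seq libraries. The members are the 3 libraries titled Gli1 uninjured and the 5 titled Pdgfra wild type, chosen by title alone. The series as a whole examined mesenchymal cells around the extrahepatic bile duct at rest, after duct ligation and with Hedgehog or Wnt pathway genes changed. Gli1 uninjured mice carried Gli1:CreERT2, and Pdgfra wild type mice carried Pdgfra:CreERT2. Both carried the Rosa26:lox-STOP-lox-tdTomato reporter, which a drug-inducible Cre switches on in cells that use the driver gene. About 1000 cells were sorted from each animal's duct, so a library is 1 animal. The labels give no age, sex, strain or tamoxifen schedule for either group, and they name ligation only for other Gli1 libraries. Wild type replicate 5 is described with a SmoFF allele as well, against its own title and genotype label, and was kept as wild type.

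Hedgehog ligands bind Ptch1 on a receiving cell, which frees Smo to act on the Gli transcription factors. Gli1 is itself a target of the pathway, so a Gli1 driver marks cells that were receiving Hedgehog signal at labelling, together with their descendants. Pdgfra, a receptor for platelet-derived growth factors, is used by fibroblasts of most organs. Fibroblasts around ducts and vessels include adventitial cells, which lie in the outer sheath and carry Pi16, Cd34 and Dpp4, and others that sit closer to epithelium or deeper in the tissue.

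The Gli1 libraries share 1 deposited table and the wild type libraries another, and no table holds both lineages, so lineage cannot be told apart from anything else that differs between the sets of libraries. Total counts were 19100111 to 24096418 in Gli1 uninjured and 21226029 to 30520596 in wild type. The ribosomal RNA locus took 3.37 ± 0.379% of counts in Gli1 uninjured (SD, n = 3) and 20.6 ± 6.06% in wild type (SD, n = 5). An exact two-sided permutation test gave p = 0.0357, the smallest that 3 libraries against 5 allow, or 0.125 adjusted over 14 makeup measures. That locus and 13239 pseudogene entries were left out before scaling, and what the locus share does to the other genes was not tested. Rows with at least 1 count numbered 15105 ± 1697 in Gli1 uninjured and 18651 ± 1599 in wild type (exact permutation p = 0.0714, adjusted 0.167). Mitochondrial genes took 4.67 ± 1.04% of the kept counts in Gli1 uninjured and 7.17 ± 1.95% in wild type (exact permutation p = 0.107, adjusted 0.214). Xist, the RNA of the inactive X chromosome, was at 481, 167 and 105 CPM (counts scaled to a common library total) in the Gli1 uninjured libraries, against 0, 0, 0, 0.0811 and 0.253 in wild type. The Y-linked translation factor gene Eif2s3y was at 0 in all 3 Gli1 uninjured libraries and at 68.8 to 88.9 CPM in wild type. The transcripts of the sexes therefore part the groups completely, and sex and lineage cannot be told apart. Log2 CPM of Gli1 uninjured libraries correlated at 0.770 to 0.826 with each other and at 0.788 to 0.847 with wild type libraries, and wild type libraries at 0.874 to 0.919 with each other (Pearson, across genes, which are not independent replicates).

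**Figure D1:**
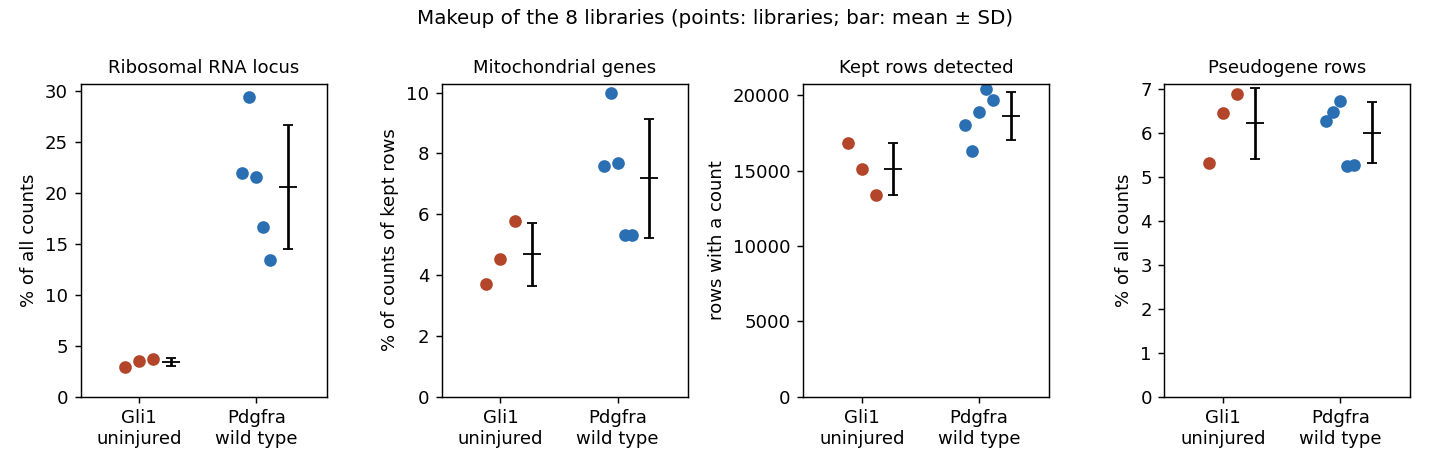
Share of counts on the ribosomal RNA locus, share of kept counts from mitochondrial genes, number of kept rows with a count and share of counts on pseudogenes, for the Gli1 uninjured libraries (left) and the Pdgfra wild type libraries (right). Points are libraries and bars are mean ± SD; the ribosomal RNA share is below 4% in every Gli1 uninjured library and above 13% in every wild type library.

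Of 15696 genes tested with edgeR's quasi-likelihood test, 291 were higher in Gli1 uninjured than in wild type (1.85%) and 588 lower (3.75%), together 879 (5.6%) at a Benjamini-Hochberg adjusted p under 0.05. A change of more than 2-fold was fitted for 165 of the higher and 474 of the lower genes. The median log2 change over all genes was -0.05. Levels did not overlap between the groups for 2636 of the 15696 genes (16.8%), with Gli1 uninjured above wild type in 918 (5.85%) and below it in 1718 (10.9%). The split of the calls depends on gene composition. With a correction for GC content and exonic length, 631 genes were higher and 468 lower, so 57.4% of calls were higher in place of 33.1%, and the median of all genes became 0.11. Called genes had a median exonic length of 3146 bases when higher and 4934 when lower, against 4008 over all genes tested. Leaving out 1 library gave 474 to 1101 calls. Without wild type replicate 1, 3, 4 or 5 they numbered 474, 480, 524 and 568. Against wild type replicates 4 and 5 alone they numbered 5, all of them among the 879. Of the lower calls, 87 had no count in any Gli1 uninjured library, as had 593 of all genes tested. In bulk samples, fewer cells of a kind and less RNA per cell cannot be told apart. The p-values reflect variation from animal to animal and library to library alike.

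**Figure D2:**
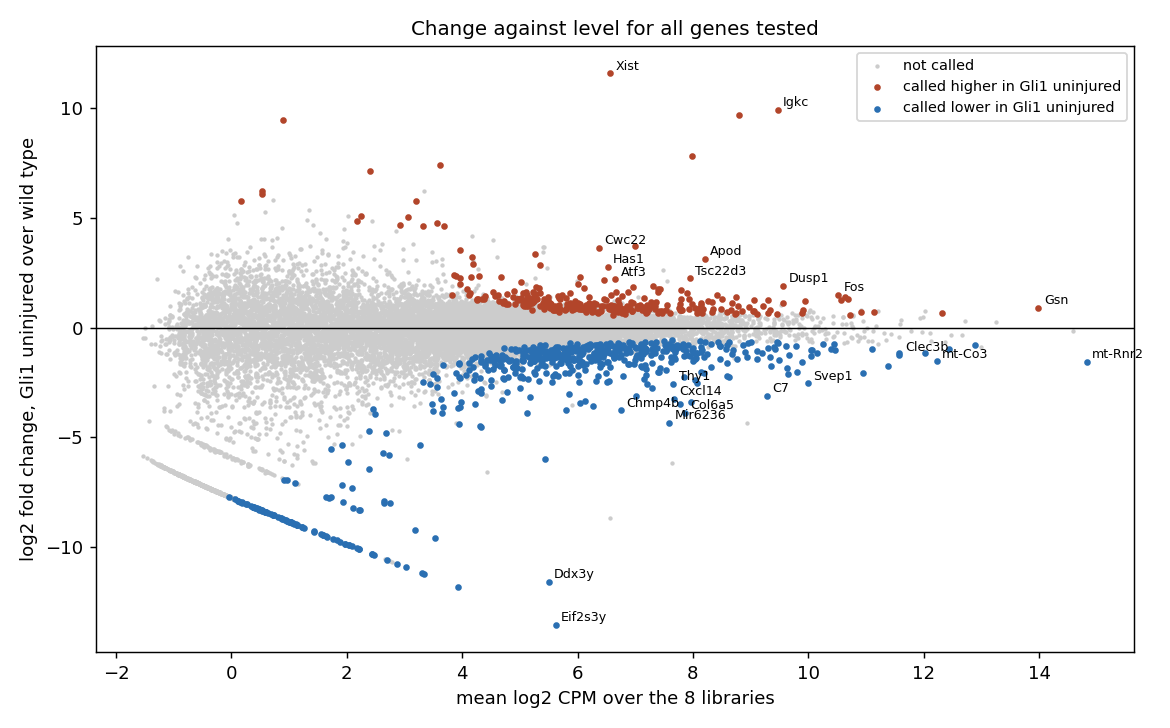
Log2 fold change of Gli1 uninjured over Pdgfra wild type (vertical) against mean log2 CPM over the 8 libraries (horizontal) for all 15696 genes tested. Red points are the 291 genes called higher in Gli1 uninjured, blue points the 588 called lower and grey points the rest; the lower left band holds genes with no count in Gli1 uninjured, whose fitted fold change depends on the prior count.

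The genes behind the Cre drivers did not part the groups. Gli1 (chromosome 10, 127329882 to 127341974, minus strand, mm10) was at 32.7, 12.8 and 7.95 CPM in Gli1 uninjured, against 21.1, 13.6, 12.8, 18.4 and 40.4 CPM in wild type. The ranges overlap almost entirely, and Gli1 uninjured replicate 3 and wild type replicate 5 hold the extremes. The log2 change was -0.26 (SE 0.52, edgeR adjusted p = 0.865). Pdgfra (chromosome 5, 75152292 to 75198215, plus strand) was at 358, 404 and 287 CPM in Gli1 uninjured, against 382, 384, 388, 282 and 313 CPM in wild type. These too overlap (log2 change -0.00, SE 0.17, edgeR adjusted p = 0.999). Cells labelled through Gli1 thus held Pdgfra RNA at levels within the wild type range or above it.

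Hedgehog receptors, transducers and regulators gave 1 call in each direction. Of 22 listed, 18 passed the filter on low counts, 1 was called higher and 1 lower, with a median log2 change of 0.00. The 2 calls are 11.1% of those tested, against 5.6% of all genes. Groups did not overlap for 1 member above and 3 below wild type, against 5.85% and 10.9% of all genes. With the GC and length correction 1 was higher and 0 lower, and the median was 0.41, against 0.11 over all genes. The ligand genes Shh and Ihh had no count in any of the 8 libraries. Gsk3b, a kinase that helps to turn Gli proteins into repressors and also marks beta-catenin for breakdown, was at 351, 294 and 254 CPM in Gli1 uninjured and 152, 158, 163, 170 and 206 CPM in wild type. Every Gli1 uninjured library lay above every wild type library, and the rise was 0.82 log2 (SE 0.16, edgeR adjusted p = 0.0144). Cdon, a cell surface co-receptor for Hedgehog ligand, was at 137, 145 and 122 CPM in Gli1 uninjured and 260, 213, 194, 234 and 229 CPM in wild type. It fell by 0.74 log2 (SE 0.16, adjusted p = 0.0186). That call was lost without Gli1 uninjured replicate 3 (adjusted p = 0.0659), wild type replicate 1 (0.0508) or wild type replicate 4 (0.0521), and with the GC and length correction (0.151). The related co-receptors Boc (log2 change -0.47, adjusted p = 0.163) and Gas1 (0.30, adjusted p = 0.523) were not called, nor was the transducer Smo, at 55.2, 51.9 and 48.3 CPM against 57.1, 41.0, 36.4, 52.9 and 43.0 in wild type.

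Target genes of the pathway gave no call. Of 18 listed, 16 were tested, with 0 higher and 0 lower by edgeR, by DESeq2 and by limma voom, and 0 higher and 1 lower at an unadjusted p under 0.05. Their median log2 change was 0.29, against -0.05 over all genes, or 0.44 against 0.11 with the GC and length correction. Ptch1, receptor and feedback target at once, was at 67.4, 50.5 and 54.3 CPM in Gli1 uninjured, against 32.4, 59.4, 48.9, 45.0 and 54.0 in wild type. Hhip, a secreted trap for Hedgehog ligand, was at 7.67, 17.6 and 10.3 CPM in Gli1 uninjured and spread from 1.91 to 21.6 CPM in wild type. Both sets overlap (adjusted p = 0.604 and 0.841). Foxf1 and Osr1, transcription factor genes of gut and duct mesenchyme, had log2 changes of 0.45 and 0.18 (adjusted p = 0.577 and 0.639).

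**Figure D3:**
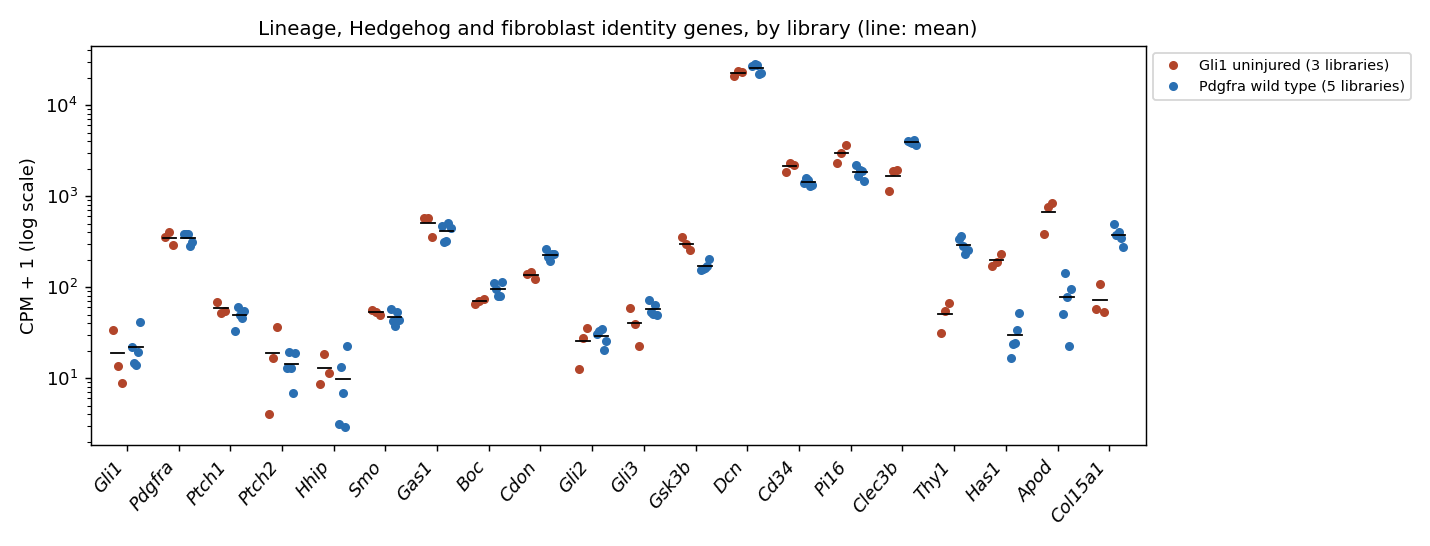
CPM plus 1 on a log axis for driver, Hedgehog and fibroblast identity genes in each Gli1 uninjured library (red, left of each pair) and each Pdgfra wild type library (blue, right of each pair), with a line at the group mean. Gli1, Pdgfra, Ptch1 and Dcn overlap between the groups, while Has1 and Apod lie higher and Thy1, Clec3b and Col15a1 lower in Gli1 uninjured.

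Both lineages carried a full set of fibroblast genes, and the shared genes that moved were lower in Gli1 uninjured. All 28 listed pan-fibroblast genes were tested, 0 were called higher and 5 lower (17.9% called, against 5.6% of all genes). Their median log2 change was -0.45. Thy1, the surface glycoprotein CD90 of many fibroblasts (chromosome 9, 44043384 to 44048579), was at 30.4, 54.4 and 65.3 CPM in Gli1 uninjured. In wild type it was at 335, 363, 285, 229 and 255 CPM. The highest Gli1 uninjured library stayed far below the lowest wild type library, and Thy1 fell by 2.55 log2 (SE 0.27, edgeR adjusted p = 0.000586). The other 4 called genes, Col5a1, Col5a2, Fbn1 and Mfap4, encode parts of collagen fibrils and microfibrils. The calls of Col5a2, Fbn1 and Mfap4 were lost without any single Gli1 uninjured library or wild type replicate 1, 3 or 4, and Col5a2 also without replicate 2 (adjusted p 0.0503 to 0.153). Col5a2 and Fbn1 were not called with the GC and length correction either (adjusted p = 0.347 and 0.225). The proteoglycan gene Dcn overlapped between the groups and was not called, at 20687 to 23985 CPM in Gli1 uninjured and 22232 to 28327 CPM in wild type (adjusted p = 0.605). With the GC and length correction 2 pan-fibroblast genes were called lower and the list's median became -0.06.

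Markers of adventitial fibroblasts went both ways. Of 30 listed, 29 were tested, 4 were higher and 3 lower (24.1% called, against 5.6% of all genes). The median log2 change was -0.02. Leaving out single libraries gave 1 to 6 higher and 2 to 4 lower, and the GC and length correction 7 higher and 3 lower with a median of 0.22. Has1, which makes hyaluronan, was at 169, 188 and 233 CPM in Gli1 uninjured, against 15.5, 22.8, 23.2, 32.8 and 51.0 in wild type. It rose by 2.76 log2 (SE 0.32, edgeR adjusted p = 0.000925). The surface marker Cd34 was at 1839, 2311 and 2214 CPM in Gli1 uninjured, against 1393, 1584, 1507, 1283 and 1334 in wild type. Pi16, a peptidase inhibitor that marks adventitial cells across organs, was at 2314, 2950 and 3641 CPM in Gli1 uninjured, against 2218, 1683, 1932, 1884 and 1479 in wild type. Neither gene overlapped between the groups, but the rises were small (0.58 and 0.69 log2, adjusted p = 0.0386 and 0.0498). Each of these 2 calls was lost without Gli1 uninjured replicate 2 or 3 and without any single wild type library, with adjusted p up to 0.118 for Cd34 and 0.175 for Pi16. Clec3b, a secreted plasminogen-binding lectin of the same cells, was lower instead, at 1134, 1890 and 1933 CPM in Gli1 uninjured. Wild type libraries held 4015, 3920, 3801, 4129 and 3663 CPM, and Clec3b fell by 1.24 log2 (SE 0.19, adjusted p = 0.00371). Heg1, a transmembrane protein known from heart and vessel formation, fell by 1.82 log2 (SE 0.22, adjusted p = 0.00111).

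Markers of parenchymal fibroblasts, the Col15a1-bearing kind found deeper in tissue, also split. All 16 were tested, 3 were higher and 5 lower (50% called, against 5.6% of all genes), with a median log2 change of -0.47. Corrected for GC content and length, 4 were higher and 2 lower, with a median of -0.48. Apod, a lipid-carrying lipocalin (chromosome 16, 31296192 to 31314808), was at 385, 752 and 847 CPM in Gli1 uninjured, against 49.5, 141, 76.4, 21.3 and 93.9 in wild type. It rose by 3.12 log2 (SE 0.47, edgeR adjusted p = 0.00371). Col15a1, a collagen next to basement membranes, was at 56.8, 107 and 51.7 CPM in Gli1 uninjured and 493, 371, 401, 349 and 277 CPM in wild type. It fell by 2.40 log2 (SE 0.28, adjusted p = 0.001). Cxcl12, the chemokine that holds blood progenitors and lymphocytes in stroma, was at 822, 923 and 778 CPM in Gli1 uninjured, against 1507, 2073, 1639, 1342 and 1643 in wild type. Cxcl12 fell by 0.96 log2 (SE 0.17, adjusted p = 0.00808), with a log2 change of -0.61 under the GC and length correction that was not called (adjusted p = 0.0897). Ces1d, a carboxylesterase of lipid metabolism, rose by 0.89 log2 (SE 0.16, adjusted p = 0.00933).

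Among 22 markers of subepithelial fibroblasts and telocytes, 19 were tested, 0 were higher and 3 lower (1.85% and 3.75% of all genes were). As a whole the list did not lean either way, with 9 positive and 10 negative changes and a median log2 change of -0.001. With the GC and length correction 0 were higher and 2 lower, and the median was 0.35, against 0.11 over all genes. Cxcl14, a chemokine of fibroblasts beneath epithelium (chromosome 13, 56288643 to 56296551), was at 21.5, 35.4 and 40.1 CPM in Gli1 uninjured. In wild type it was at 273, 457, 237, 237 and 326 CPM, all above every Gli1 uninjured library (log2 change -3.24, SE 0.30, edgeR adjusted p = 0.000231). Bmp4, a BMP ligand of the same cells and a Hedgehog target, overlapped between the groups (log2 change 0.34, adjusted p = 0.317).

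Portal fibroblast markers, which overlap with the lists above, gave 4 higher and 4 lower calls of 20 (40%, against 5.6% of all genes). Without single libraries they gave 1 to 4 higher and 2 to 3 lower. Igfbp3, a binding protein for insulin-like growth factors, was at 574, 605 and 749 CPM in Gli1 uninjured, against 329, 310, 248, 376 and 343 in wild type (log2 change 1.00, SE 0.17, edgeR adjusted p = 0.00608). Hepatic stellate cell markers gave 0 higher and 0 lower calls of 14 tested by edgeR. At an unadjusted p under 0.05 they gave 2 and 2, by DESeq2 1 and 2 and by limma voom 0 and 0. The stellate cell globin gene Cygb was at 1005, 1188 and 1091 CPM in Gli1 uninjured, against 1319, 1034, 1086, 1074 and 1001 in wild type (adjusted p = 0.985). Of 46 mesenchymal transcription factor genes tested, 1 was higher and 0 were lower, near the 1.85% and 3.75% of all genes. Of 39 Hox genes, 17 were tested and 0 were called by edgeR or limma voom, with 0 higher and 3 lower both at an unadjusted p under 0.05 and by DESeq2. Of the 17, 0 lay above and 2 below wild type in every Gli1 uninjured library, near the 10.9% of all genes that lay below. These 2 were Hoxa2 and Hoxa3, with log2 changes of -0.61 and -0.92 (edgeR adjusted p = 0.25 and 0.0999).

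Wnt pathway genes gave 2 higher and 2 lower calls of 32 tested (12.5%, against 5.6% of all genes). Axin2, a feedback inhibitor that reports canonical Wnt signalling, was at 6.66, 6.57 and 16.2 CPM in Gli1 uninjured and 58.0, 52.0, 36.9, 50.4 and 32.2 CPM in wild type. It fell by 2.23 log2 (SE 0.38, edgeR adjusted p = 0.0073) with no overlap between the groups. Wif1, a secreted Wnt inhibitor, was at 56.9, 66.2 and 392 CPM in Gli1 uninjured, against 32.8, 42.1, 42.0, 24.7 and 48.8 in wild type. Gli1 uninjured replicate 3 sets that rise of 2.17 log2 (SE 0.53, adjusted p = 0.0381), which was 0.70 without it (adjusted p = 0.17). The call was also lost without any single wild type library (adjusted p 0.0704 to 0.0929).

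Genes of BMP and TGF-beta signalling gave 2 higher and 8 lower calls of 35 (28.6%, against 5.6% of all genes). With the GC and length correction they gave 2 and 2, against 631 and 468 of all 15440 genes tested that way. Bmper, which binds BMP ligands outside the cell, was at 40.8, 27.4 and 54.7 CPM in Gli1 uninjured, against 148, 95.7, 125, 136 and 109 in wild type (log2 change -1.58, SE 0.25, edgeR adjusted p = 0.00435). The receptor gene Bmpr2 was at 99.1, 115 and 57.5 CPM in Gli1 uninjured, against 220, 180, 187, 230 and 208 in wild type. It fell by 1.18 log2 (SE 0.22, adjusted p = 0.0118), or by 0.74 with the correction (adjusted p = 0.0713). Of 37 stromal growth factor and receptor genes tested, 1 was higher and 3 were lower (10.8% called, against 5.6% of all genes). Egfr, the epidermal growth factor receptor, was at 149, 140 and 90.7 CPM in Gli1 uninjured, against 404, 338, 350, 354 and 270 in wild type. It fell by 1.44 log2 (SE 0.21, adjusted p = 0.00264), and Vegfd, a growth factor for lymphatic vessels, fell by 1.15 (SE 0.16, adjusted p = 0.00215). Hes1 and Spry2, feedback genes of Notch and of receptor tyrosine kinase signalling, rose by 1.63 (SE 0.21, adjusted p = 0.00171) and 1.75 log2 (SE 0.23, adjusted p = 0.00186). Hes1 was at 198, 158 and 173 CPM in Gli1 uninjured and at 40.3 to 81.3 CPM in wild type. Spry2 was at 357, 268 and 279 CPM in Gli1 uninjured and at 61.7 to 117 CPM in wild type.

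Nearly all matrix genes that changed were lower in Gli1 uninjured. Basement membrane genes, for the sheet beneath epithelium, muscle and vessels, gave 0 higher and 7 lower calls of 18. That is 38.9%, against 5.6% of all genes, and the list's median log2 change was -0.82. Col4a2, a chain of type IV collagen, was at 105, 127 and 118 CPM in Gli1 uninjured, against 650, 509, 586, 561 and 413 in wild type. It fell by 2.22 log2 (SE 0.19, edgeR adjusted p = 0.000154). Hspg2, the heparan sulphate proteoglycan perlecan, was at 120, 104 and 128 CPM in Gli1 uninjured and 713, 615, 563, 522 and 387 CPM in wild type. Hspg2 fell by 2.25 log2 (SE 0.21, adjusted p = 0.000231), with no library of one group inside the range of the other. Col4a1, the partner chain of Col4a2, was at 235, 243 and 237 CPM in Gli1 uninjured, against 576, 467, 485, 466 and 330 in wild type (log2 change -0.96, SE 0.18, adjusted p = 0.0118). With the GC and length correction, 3 of the 7 remained called, and Col4a1 was not among them (-0.52, adjusted p = 0.134). Without single libraries, 6 to 8 members were called lower.

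Of 39 fibrillar matrix genes tested, 0 were higher and 8 lower (20.5% called, against 5.6% of all genes). Their median log2 change was -0.56, and 34 of the 39 had a negative change. Sparc, a collagen-binding glycoprotein, was at 3292, 3952 and 3067 CPM in Gli1 uninjured, against 7685, 6590, 7560, 6620 and 5721 in wild type. It fell by 0.99 log2 (SE 0.16, edgeR adjusted p = 0.00511). Loxl2, an enzyme that crosslinks collagen, fell by 1.33 log2 (SE 0.22, adjusted p = 0.0057) and Col5a1 by 1.02 (SE 0.17, adjusted p = 0.00541). The main collagen genes lay lower in every Gli1 uninjured library without passing the threshold. Col1a1 was at 3946, 4364 and 3480 CPM in Gli1 uninjured, against 8067, 6200, 6180, 5331 and 4772 in wild type (log2 change -0.64, adjusted p = 0.0719). Col3a1 gave -0.88 (adjusted p = 0.0631), and was called without wild type replicate 5 (adjusted p = 0.0359). Under the correction for GC content and length 1 gene was called higher and 3 lower, the median was -0.22 and Col5a1 was not called (adjusted p = 0.078). Leaving out single libraries gave 3 to 11 lower calls.

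Small leucine-rich proteoglycans gave 1 higher and 1 lower call of 11 tested (18.2%, against 5.6% of all genes). The higher one was Fmod (log2 change 0.69, SE 0.18, edgeR adjusted p = 0.0497), whose call was lost without Gli1 uninjured replicate 2 or 3 or any single wild type library (adjusted p 0.0596 to 0.142). The lower one was Bgn, which binds collagen and is on the X chromosome. Bgn was at 1426, 1768 and 1932 CPM in Gli1 uninjured, against 4312, 4481, 4119, 3209 and 3053 in wild type (log2 change -1.17, SE 0.19, edgeR adjusted p = 0.00477). Matrix proteases and inhibitors gave 0 higher and 5 lower calls of 26 tested (19.2%), with a median of -0.62. Ctsk, a collagen-cutting cathepsin, was at 74.4, 87.3 and 105 CPM in Gli1 uninjured, against 284, 245, 244, 217 and 144 in wild type (log2 change -1.35, SE 0.23, adjusted p = 0.00689). Adamts15, a protease of proteoglycans, fell by 1.32 (SE 0.18, adjusted p = 0.00216). Svep1, a large adhesion protein of the matrix, was at 300, 305 and 161 CPM in Gli1 uninjured and 1817, 1423, 1459, 1402 and 1299 CPM in wild type. It fell by 2.54 log2 (SE 0.24, adjusted p = 0.000231). Col6a5, an alternative chain of type VI collagen, was at 46.7, 5.01 and 21.9 CPM in Gli1 uninjured, against 426, 300, 410, 351 and 301 in wild type (log2 change -3.87, SE 0.58, adjusted p = 0.00333).

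Of 23 complement genes, 0 were called higher and 7 lower (30.4% called, against 5.6% of all genes), with a median log2 change of -0.81. The other 16 were not called, and 2 of them lay above wild type in every Gli1 uninjured library. C7, a part of the pore that complement builds in target membranes (chromosome 15, 4988762 to 5063740, minus strand), was at 108, 135 and 79.6 CPM in Gli1 uninjured. Wild type libraries held 989, 978, 873, 878 and 919 CPM, a narrow band far above the other group. C7 fell by 3.10 log2 (SE 0.20, edgeR adjusted p = 2.03e-05). C4b, which forms the C3 convertase of the classical and lectin pathways, was at 1150, 1224 and 916 CPM in Gli1 uninjured, against 3765, 4450, 3802, 2879 and 3319 in wild type. It fell by 1.73 log2 (SE 0.18, adjusted p = 0.00057). Its near-identical neighbour C4a fell by 3.41 (SE 0.53, adjusted p = 0.00406), and how reads were shared between the copies is not known. Masp1, a protease of the lectin pathway, was at 66.4, 67.3 and 74.5 CPM in Gli1 uninjured and 234, 239, 220, 184 and 174 CPM in wild type (log2 change -1.60, SE 0.17, adjusted p = 0.000603). C1qa, which macrophages make, was at 0 in all Gli1 uninjured libraries and at 25.4, 4.12, 17.9, 16.8 and 0.152 CPM in wild type. Its call was lost without Gli1 uninjured replicate 2, wild type 1 or wild type 3 (adjusted p = 0.0563, 0.0546 and 0.0542). Immune markers summed to 13.8 to 41.6 CPM in Gli1 uninjured and 12.9 to 135 CPM in wild type, with 0 higher and 1 lower of 12 tested. Their part in the fall of C1qa was not tested.

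Chemokine and cytokine genes gave 0 higher and 6 lower calls of 26 tested (23.1%, against 5.6% of all genes), with a median of -0.93. Ccl2, which draws monocytes, was at 5.65, 6.43 and 15.9 CPM in Gli1 uninjured, against 77.2, 136, 127, 58.7 and 98.7 in wild type (log2 change -3.42, SE 0.43, edgeR adjusted p = 0.00148). Hp, the haemoglobin-binding acute-phase protein, was at 49.2, 34.2 and 6.25 CPM in Gli1 uninjured, against 329, 353, 350, 301 and 321 in wild type (log2 change -3.47, SE 0.52, adjusted p = 0.00348). Il1r1, the signalling receptor for interleukin 1, was at 83.7, 53.6 and 68.0 CPM in Gli1 uninjured, against 196, 217, 364, 220 and 287 in wild type. It fell by 1.91 log2 (SE 0.25, adjusted p = 0.0017). Cmklr1, the chemerin receptor, fell by 3.73 (SE 0.35, adjusted p = 0.000231), to 3.95 to 9.43 CPM in Gli1 uninjured against 68.3 to 119 CPM in wild type. Interferon response genes gave 1 higher and 1 lower call of 32, close to the rates over all genes. Of 21 MHC genes 2 were higher and 1 was lower (14.3% called). H2-Q4, a class I gene with close relatives beside it, was at 5.17, 4.50 and 1.10 CPM in Gli1 uninjured and 55.5, 62.4, 56.3, 37.4 and 55.4 CPM in wild type (log2 change -3.89, SE 0.48, adjusted p = 0.00117). H2-T23, a non-classical class I gene, rose by 1.27 (SE 0.22, adjusted p = 0.00743), while B2m, the shared light chain, did not part the groups (adjusted p = 0.94). Reads of such relatives can be split between genes in counting, so these 2 changes are uncertain.

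**Figure D4:**
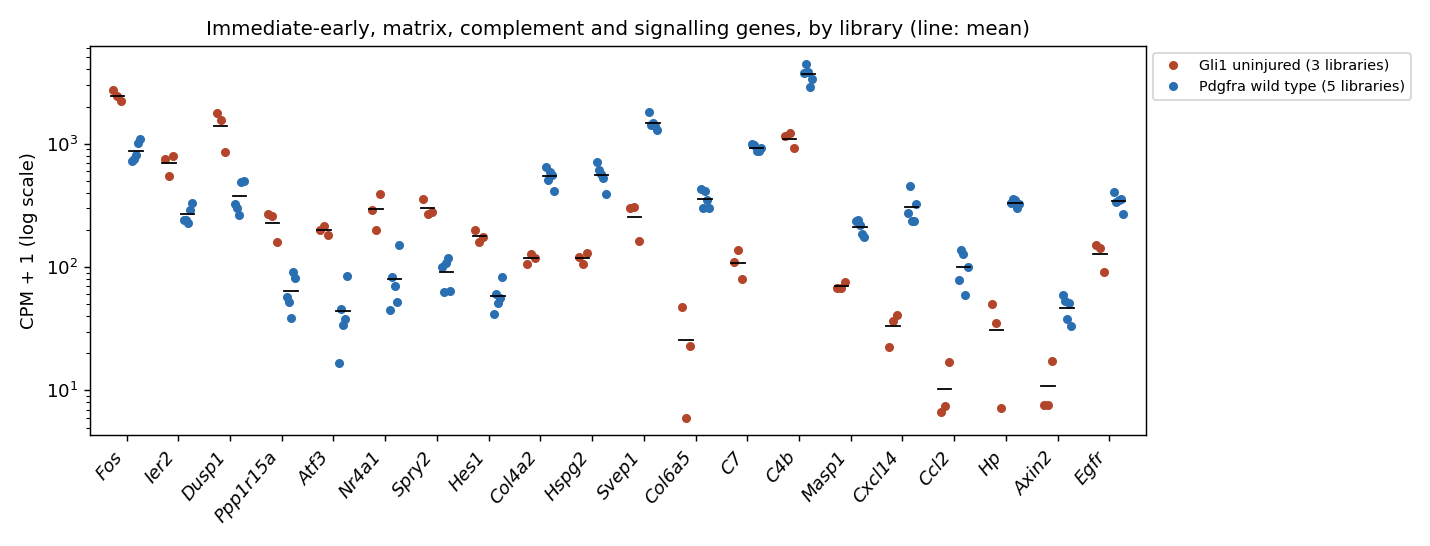
CPM plus 1 on a log axis for immediate-early, feedback, matrix, complement, chemokine and receptor genes in each Gli1 uninjured library (red, left of each pair) and each Pdgfra wild type library (blue, right of each pair), with a line at the group mean. The first 8 genes, from Fos to Hes1, are higher in every Gli1 uninjured library than in any wild type library, and the other 12, from Col4a2 to Egfr, are lower.

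Immediate-early genes stood out among the lists for calls toward Gli1 uninjured. These genes are transcribed within minutes of a stimulus. Of 34 listed, 31 were tested, 13 were higher (1.85% of all genes were) and 1 lower, with a median log2 change of 0.81. Fos, a subunit of the AP-1 transcription factor (chromosome 12, 85473890 to 85477273, plus strand), was at 2699, 2420 and 2211 CPM in Gli1 uninjured. In wild type it was at 717, 745 and 816 CPM in replicates 1 to 3 and at 1011 and 1092 in replicates 4 and 5, so the groups lay well apart. The rise was 1.48 log2 (SE 0.17, edgeR adjusted p = 0.000906). Ier2, a nuclear protein of the early response, was at 756, 546 and 793 CPM in Gli1 uninjured, against 239, 238, 228, 291 and 332 in wild type (log2 change 1.39, SE 0.18, adjusted p = 0.00167). Dusp1, a phosphatase that switches off MAP kinases, was at 1762, 1562 and 852 CPM in Gli1 uninjured, against 321, 302, 262, 488 and 500 in wild type. It rose by 1.89 log2 (SE 0.27, adjusted p = 0.00261). Atf3, a stress-induced repressor, was at 198, 213 and 181 CPM in Gli1 uninjured and 15.8, 44.8, 32.9, 36.9 and 84.4 CPM in wild type (log2 change 2.20, SE 0.39, adjusted p = 0.00831). Ppp1r15a, which relieves the block on translation under stress, was at 268, 256 and 158 CPM in Gli1 uninjured, against 56.7, 50.7, 37.7, 90.4 and 81.1 in wild type (log2 change 1.84, SE 0.28, adjusted p = 0.00386).

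Further members moved the same way. Klf6, a zinc finger factor, rose by 1.04 log2 (SE 0.14, edgeR adjusted p = 0.00185), Nr4a1, a nuclear receptor, by 1.88 (SE 0.36, adjusted p = 0.0124) and Junb, another AP-1 subunit, by 1.19 (SE 0.22, adjusted p = 0.00968). Btg2, an antiproliferative gene, was at 285, 211 and 191 CPM in Gli1 uninjured, against 49.8, 51.1, 87.2, 122 and 137 in wild type (log2 change 1.36, SE 0.33, adjusted p = 0.0352). The Btg2 call was lost without Gli1 uninjured replicate 1 or 2, or wild type 1, 2 or 3 (adjusted p 0.065 to 0.0877). Egr1 and Jun, the best known members beside Fos, were above wild type in every Gli1 uninjured library without passing the threshold (log2 change 0.81 and 0.70, adjusted p = 0.0657 and 0.0841). Egr1 was called without wild type replicate 5 (adjusted p = 0.0315). Maff, a small Maf factor, was the member called lower, at 6.02, 8.96 and 4.39 CPM in Gli1 uninjured and 17.6 to 25.1 CPM in wild type (adjusted p = 0.0333). Its call was lost without Gli1 uninjured replicate 1 and without any single wild type library (adjusted p 0.0544 to 0.095). Without single libraries 8 to 12 members were called higher, against wild type replicates 1 to 3 alone 13 were, and against replicates 4 and 5 alone 0 were. Against replicates 4 and 5 alone only 5 of all 16248 genes tested were called, 0 of them higher. The lack of calls there therefore cannot tell whether these genes differ. The log2 change of Fos was 1.68 against replicates 1 to 3 and 1.22 against replicates 4 and 5. That of Egr1 was 1.18 and 0.39, and that of Jun 0.98 and 0.36.

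The upstream sequences of members that moved together are shown because a cAMP response element, TGACGTCA, is a textbook site in such promoters. RefSeq promoters (GRCm38.p6, 250 bases before to 50 after the start) were found for 12 of the 13 members called higher. The palindrome TGACGTCA occurred in 3 of those 12, against 1.88% of 27025 promoters of the same length, and in 3 of the 28 promoters found for the whole list. Its core TGACG, which also lies within the palindrome, occurred on either strand in 9 of the 12 and in 16 of the 28, against 21% of all promoters. The sequences shown were picked for the motif: they are the 3 that hold the palindrome, and Fos for its core. The lines give the 180 bases before the start, 5′ to 3′ on the gene's strand, with the motif in capitals. They are Dusp1 (chr17:26508473-26508652, minus strand), Btg2 (chr1:134079156-134079335, minus strand), Ppp1r15a (chr7:45526269-45526448, minus strand) and Fos (chr12:85473710-85473889, plus strand).
Dusp1: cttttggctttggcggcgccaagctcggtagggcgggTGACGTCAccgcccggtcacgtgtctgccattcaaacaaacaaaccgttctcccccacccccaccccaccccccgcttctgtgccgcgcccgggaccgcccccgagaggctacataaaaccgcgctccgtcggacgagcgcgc
Btg2: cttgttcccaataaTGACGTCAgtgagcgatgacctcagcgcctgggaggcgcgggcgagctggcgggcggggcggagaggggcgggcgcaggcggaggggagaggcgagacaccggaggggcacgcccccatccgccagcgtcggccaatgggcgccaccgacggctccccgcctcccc
Ppp1r15a: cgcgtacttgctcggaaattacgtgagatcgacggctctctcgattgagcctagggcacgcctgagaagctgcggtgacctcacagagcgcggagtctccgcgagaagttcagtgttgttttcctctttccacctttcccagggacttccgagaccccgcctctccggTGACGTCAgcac
Fos: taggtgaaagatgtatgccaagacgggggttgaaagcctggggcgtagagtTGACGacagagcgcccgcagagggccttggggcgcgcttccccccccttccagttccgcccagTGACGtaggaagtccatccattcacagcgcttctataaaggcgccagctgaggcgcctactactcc
The palindrome begins 143 bases before the start in Dusp1, 166 in Btg2 and 12 in Ppp1r15a. In Fos the core begins 129 and 66 bases before the start. These are matches of letters, and no binding was measured.

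Other states moved less. Heat shock and stress genes gave 4 higher and 1 lower call of 24 (20.8%, against 5.6% of all genes). Without single libraries they gave 0 to 2 higher calls. Hspa1a, the inducible chaperone, was at 60.2, 72.0 and 42.3 CPM in Gli1 uninjured, against 15.5, 15.2, 20.9, 17.8 and 34.0 in wild type. It rose by 1.49 log2 (SE 0.31, edgeR adjusted p = 0.0171), and was not called without Gli1 uninjured replicate 2 (adjusted p = 0.0672) or wild type replicate 1 (0.0508). Hspa1a has a near-identical neighbour, so its reads may be split. Cell cycle genes gave 0 higher and 0 lower calls of 40 by edgeR and by limma voom, 0 and 1 at an unadjusted p under 0.05, and 0 and 1 by DESeq2. Of 40 nuclear genes of oxidative phosphorylation 1 was higher, the succinate dehydrogenase subunit gene Sdhd (log2 change 1.13, SE 0.22, adjusted p = 0.0144). Of the 40, 31 had a positive change. In 7 every Gli1 uninjured library lay above wild type (5.85% of all genes), and in 0 below (10.9% of all genes). At an unadjusted p under 0.05 the list gave 8 higher and 0 lower, and by DESeq2 5 and 0.

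Ribosomal protein genes gave 0 higher and 13 lower calls of 75 (17.3%, against 5.6% of all genes), with a median log2 change of -0.39. Rpl8, of the large subunit, was at 426, 627 and 601 CPM in Gli1 uninjured and 1391, 1547, 1401, 1260 and 1154 CPM in wild type (log2 change -1.29, SE 0.18, adjusted p = 0.00209). The groups did not overlap. In contrast Rps27rt, a retrocopy of Rps27, rose by 1.37 (SE 0.18, adjusted p = 0.00159), at 1937 to 3159 CPM in Gli1 uninjured and 835 to 1130 CPM in wild type. Many genome copies of these genes can take their reads, so values of single members are uncertain. Of 13 protein genes of the mitochondrial genome, 0 were higher and 2 lower (15.4% called). The cytochrome oxidase subunit gene mt-Co3 was at 1692, 2253 and 2653 CPM in Gli1 uninjured, against 6733, 7711, 7023, 5250 and 5192 in wild type. Its level fell by 1.54 log2 (SE 0.20, adjusted p = 0.00183). Its companion subunits mt-Co1 and mt-Co2 overlapped between the groups and had positive changes (0.74 and 0.82, adjusted p = 0.108 and 0.11). The transfer RNA gene mt-Tq rose by 2.06 (SE 0.35, adjusted p = 0.00683).

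**Figure D5:**
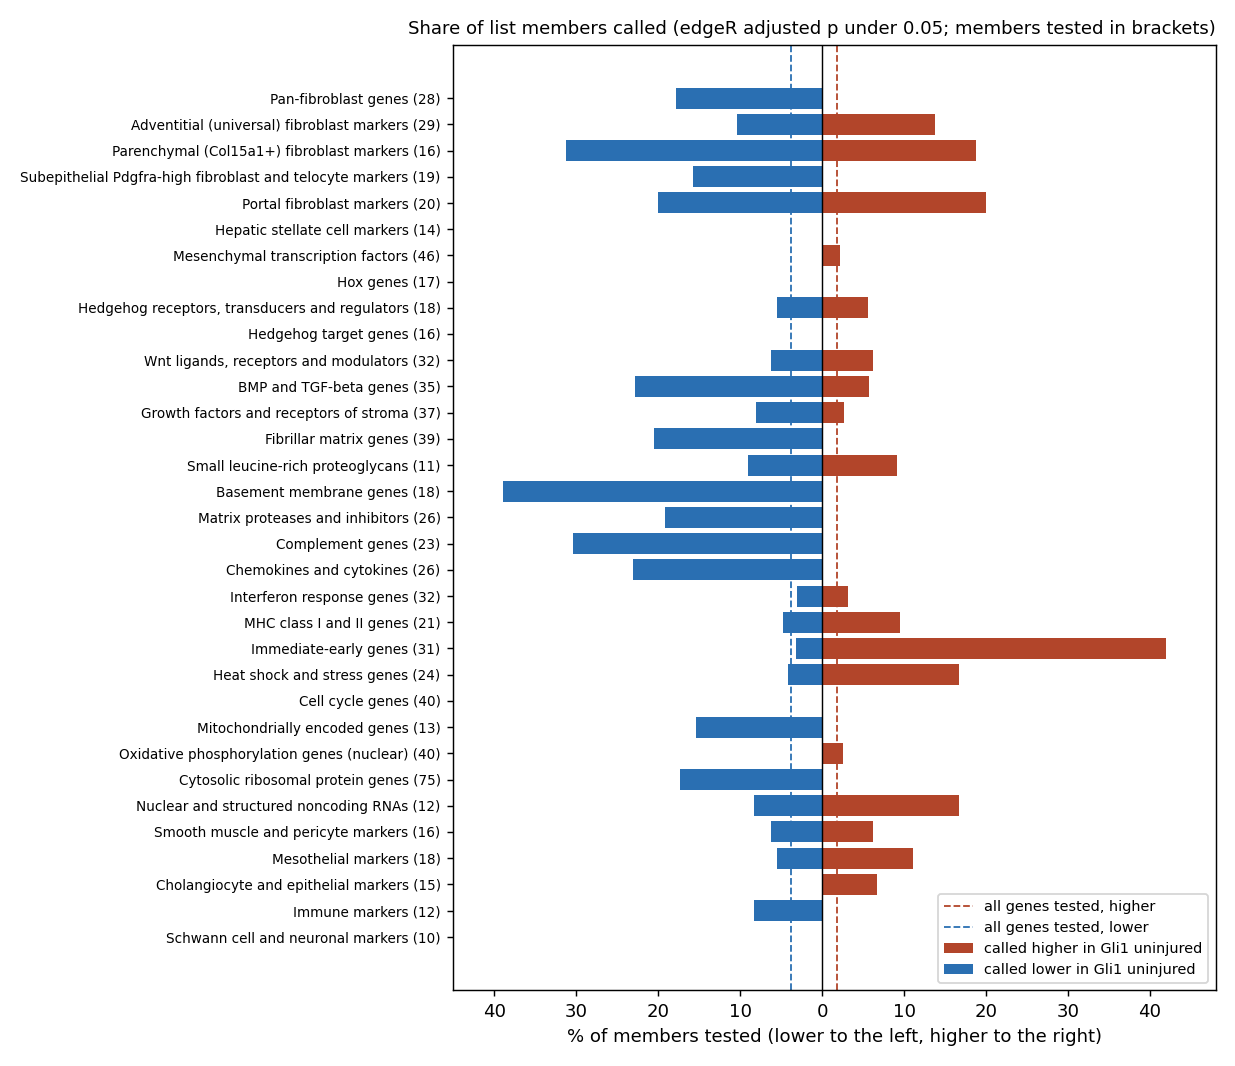
Percent of the tested members of each gene list with at least 10 tested members called lower (blue, left) and higher (red, right) in Gli1 uninjured against Pdgfra wild type, with dashed lines at the 3.75% and 1.85% of all 15696 genes. Immediate-early genes reach farthest to the right with 13 of 31, and basement membrane genes farthest to the left with 7 of 18.

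Markers of cells that the sort could let through were summed in each library. Mesothelial markers, all 18 tested with 2 higher and 1 lower, summed to 592 to 2181 CPM in Gli1 uninjured and 600 to 1068 CPM in wild type (exact permutation p = 0.25, adjusted 0.438). Of the 18, 17 had a positive change, with a median log2 change of 0.92, against -0.05 over all genes. At an unadjusted edgeR p under 0.05, 7 were higher and 1 lower. Msln, a surface protein of mesothelium and of activated portal fibroblasts, was at 153, 67.6 and 172 CPM in Gli1 uninjured, against 3.04, 52.8, 24.2, 21.6 and 30.0 in wild type. It rose by 2.32 log2 (SE 0.60, edgeR adjusted p = 0.0478), a call lost without any single Gli1 uninjured library or wild type replicate 3, 4 or 5 (adjusted p 0.0534 to 0.112). Cholangiocyte and epithelial markers, 15 of 22 tested with 1 higher, summed to 149 to 1290 CPM in Gli1 uninjured and 182 to 208 CPM in wild type. Gli1 uninjured replicate 3 holds that peak. Krt8, a keratin of simple epithelia, was at 27.3, 19.3 and 217 CPM in Gli1 uninjured and 8.25 to 17.0 CPM in wild type. Its rise of 2.83 log2 (SE 0.64, adjusted p = 0.0274) was 0.91 without replicate 3 (adjusted p = 0.194), and the call was lost without any single wild type library (adjusted p 0.0599 to 0.077). The part of mesothelial and epithelial RNA in the rises of Msln, Krt8, Has1 and Wif1 was not tested.

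Adipocyte markers, 7 of 12 tested with 0 higher and 1 lower, summed to 519 to 879 CPM in Gli1 uninjured and 1085 to 1688 CPM in wild type, with Lep and Retn at 0 in every library. Nearly all of that sum is Lpl, a lipase that fibroblasts also make and a member of the parenchymal list. Lpl alone was at 554, 857 and 519 CPM in Gli1 uninjured, against 1580, 1208, 1374, 1310 and 1043 in wild type. Its call was lost without Gli1 uninjured replicate 1 or 3 (adjusted p = 0.0549 and 0.0582), and with the GC and length correction (0.137). Schwann cell and neuronal markers, 10 of 19 tested with 0 calls, summed to 127 to 178 CPM in Gli1 uninjured and 93.5 to 103 CPM in wild type, with Foxd3, Fabp7 and Elavl4 at 0. Pancreatic markers, 5 of 21 tested with 1 higher, summed to 16.9 to 70.1 CPM in Gli1 uninjured and 2.84 to 12.5 CPM in wild type, with Prss1 and Try5 at 0. None of these 3 sums overlapped between the groups, and each had an exact permutation p of 0.0357, the smallest possible, or 0.125 adjusted over 14 measures. Endothelial markers summed to 146 to 192 CPM in Gli1 uninjured and 123 to 159 CPM in wild type, with Tie1, Emcn, Cldn5, Sox17 and Robo4 at 0. Smooth muscle and pericyte markers summed to 666 to 1049 CPM in Gli1 uninjured and 681 to 988 CPM in wild type. Hepatocyte markers, 5 of 20 tested with 1 higher and 1 lower, summed to 588 to 668 CPM in Gli1 uninjured and 336 to 1181 CPM in wild type. Cyp2e1 rose by 1.30 log2 (SE 0.29, edgeR adjusted p = 0.0253), at 335 to 444 CPM in Gli1 uninjured and 79.0 to 240 CPM in wild type. Ahsg fell by 1.85 log2 (SE 0.39, adjusted p = 0.0191). Without single libraries the list gave 0 to 1 higher and 1 to 2 lower calls. Immunoglobulin light chain RNA was high in Gli1 uninjured replicates 1 and 2 alone. Igkc was at 2078, 3586 and 3.62 CPM in Gli1 uninjured and 0 to 4.07 CPM in wild type, and the variable gene Igkv4-90 was at 1220, 2211 and 0 CPM in Gli1 uninjured and 0 to 0.304 CPM in wild type.

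The most abundant transcripts of each baseline were ranked by counts per exonic length, as TPM, a per-length share of all transcripts, since levels of different genes can only be set side by side per length. The top 25 took 24.4% of TPM in Gli1 uninjured and 26.6% in wild type, and 18 genes were in both sets. Mitochondrial genes made up 10 of the 25 in Gli1 uninjured and 11 in wild type. The mitochondrial ribosomal RNA mt-Rnr2 ranked 1 in both, at 21922 ± 5002 TPM in Gli1 uninjured (SD, n = 3) and 63261 ± 17711 TPM in wild type (SD, n = 5). Its difference of -1.55 log2 in the count test (edgeR adjusted p = 0.0196) was not called without Gli1 uninjured replicate 1 or 2, or wild type 1 or 3 (adjusted p 0.0542 to 0.0666). Dcn, a small proteoglycan that binds collagen, was at 10314 ± 246 TPM in Gli1 uninjured and 11583 ± 376 TPM in wild type. On this scale, which uses no TMM factor, its ranges of 10059 to 10549 and 11187 to 12048 TPM did not overlap, unlike those in CPM. Gsn, which severs actin filaments, ranked 2 in Gli1 uninjured with 19251 ± 1091 TPM and 9 in wild type with 10330 ± 1933 TPM. In CPM it was at 20164, 25654 and 22977 in Gli1 uninjured, against 16232, 10786, 13370, 11478 and 9507 in wild type. The rise of 0.90 log2 (SE 0.18, adjusted p = 0.0163) was not called without Gli1 uninjured replicate 2 (adjusted p = 0.0655) or wild type replicate 4 (0.0628).

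Among the 7 genes in the top 25 of Gli1 uninjured alone were Igkc, Igkv4-90, Tmsb4x, Actb, Igfbp6 and Igfbp7. Igkc ranked 10 and Igkv4-90 ranked 12, the highest of the 7. Replicates 1 and 2 set both ranks, and Gli1 uninjured replicate 3 held 17.1 and 0 TPM. Tmsb4x, a small protein that holds actin monomers, was at 4570 ± 602 TPM in Gli1 uninjured and 1922 ± 180 TPM in wild type, and rose by 1.25 log2 (SE 0.19, edgeR adjusted p = 0.00326). It is X-linked and has copies elsewhere in the genome. Igfbp6, a binding protein for insulin-like growth factor 2 and an adventitial marker, was at 5216 ± 374 TPM in Gli1 uninjured and 3532 ± 455 TPM in wild type, without passing the threshold (adjusted p = 0.0524, or 0.0332 without Gli1 uninjured replicate 1). Clec3b and Sparc were in the top 25 of wild type alone, with 4366 ± 835 and 2416 ± 330 TPM in Gli1 uninjured and 10543 ± 1244 and 4803 ± 488 TPM in wild type. The short RNA genes Mir6236 and Gm23935 also ranked there. Both were lower in Gli1 uninjured, as was the ribosomal RNA share. Among wild type libraries both were highest in replicate 4, with a share of 16.6%, and the share was highest in replicate 2, at 29.4%. What ribosomal RNA adds to the counts of these 2 genes was not tested. Gm23935 was at 1665 TPM on average in Gli1 uninjured and 10231 TPM in wild type. Mir6236 was at 14.2, 16.9 and 13.8 CPM in Gli1 uninjured, against 288, 234, 189, 460 and 328 in wild type (log2 change -4.32, SE 0.32, adjusted p = 5.56e-05). Of the 32 genes in either set, 11 were called.

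Some large changes belong to none of the lists. Chmp4b, a subunit of the ESCRT-III machinery that cuts membranes (chromosome 2, 154651705 to 154694785, plus strand), was at 14.0, 12.6 and 9.92 CPM in Gli1 uninjured. In wild type it was at 160, 179, 144, 173 and 170 CPM, and Chmp4b fell by 3.76 log2 (SE 0.20, edgeR adjusted p = 3.46e-06). It was called in all 22 other settings, including the comparison with wild type replicates 4 and 5 alone, where 5 genes were. Cwc22, a splicing factor gene, was at 334, 169 and 80.8 CPM in Gli1 uninjured, against 10.9, 20.7, 17.2, 9.05 and 21.1 in wild type (log2 change 3.63, SE 0.42, adjusted p = 0.000881). Tsc22d3, the glucocorticoid-induced leucine zipper gene on the X chromosome, was at 607, 652 and 193 CPM in Gli1 uninjured and 94.4 to 111 CPM in wild type. It rose by 2.23 log2 (SE 0.31, adjusted p = 0.00208). Bmp2k, a kinase gene, rose by 1.99 (SE 0.25, adjusted p = 0.00157). The signal recognition particle RNA genes Rn7s1 and Rn7s2, near-identical copies, fell by 3.58 (SE 0.34) and 3.16 (SE 0.32, adjusted p = 0.000231 and 0.000402).

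Few of these differences run through the whole series. Over all 29 libraries, 36 of the 15696 genes (0.229%) were higher in each of the 6 Gli1 libraries than in any of the 23 Pdgfra libraries, and 77 (0.491%) were lower. Of the genes called in the baseline comparison, 17 of 291 and 58 of 588 did so, and the baseline libraries are among those compared. Chmp4b, in CPM scaled over all 29 libraries, was at 18.7 to 34.7 in ligated Gli1 libraries, against 63.3 to 225 in the 18 Pdgfra libraries of other genotypes. H2-Q4 was at 0 to 0.65 CPM in the ligated Gli1 libraries and 18.2 to 100.0 CPM in those 18. Gsk3b was at 267 to 385 CPM in the ligated Gli1 libraries and 82.5 to 209 CPM in those 18. Others did not hold. Apod was at 24.1 to 139 CPM after ligation, within the 16.1 to 1206 CPM of the other Pdgfra genotypes. Fos was at 309 to 339 CPM after ligation, below their 730.5 to 2344 CPM. Thy1 was at 232 to 336 CPM after ligation, within their 57.9 to 708 CPM. Cxcl14 was at 111.5 to 326.6 CPM after ligation and at 27.97 to 226.2 CPM in the other Pdgfra genotypes. Those genotypes lay below wild type, at 226.3 to 450.2 CPM, and reached into the Gli1 uninjured range of 20.75 to 39.52 CPM.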

How the data were processed

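RNA-seq libraries were made from sorted cells of single ducts, with the Smartseq3 protocol and Smartseq2 oligos, per the labels' protocols. The authors deposited raw counts per gene with no normalization in the values, in 1 table for the Gli1 libraries and 1 for each Pdgfra genotype. Per the submitters' processing notes, reads were placed on mm10. Which aligner, counter, annotation and strand setting made the counts is not given in the sources used here. No molecular identifiers were counted, so PCR copies are included, and genes overlapping on opposite strands may share reads.

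The Gli1 and wild type tables each hold 55401 rows in the same order of symbols, of which 55291 symbols are distinct, and 53292 symbols were matched to GENCODE M21 for coordinates, type, GC content and exonic length. The ribosomal RNA locus and 13239 pseudogene rows were left out, which kept 42161 rows. Counts were filtered with filterByExpr, scaled by TMM and tested with edgeR 4.0.16 (quasi-likelihood, Benjamini-Hochberg adjusted p under 0.05, R 4.3.3) on the 8 libraries, with no covariate. CPM used TMM-scaled totals of the kept rows, and TPM divided by exonic length. A setting with DESeq2 1.42.0, 1 with limma 3.58.1 voom, other scalings, filters and libraries, and a correction for GC content and length (smooth terms from mgcv 1.9.3 as offsets) were tried. Marker sums were compared by exact two-sided permutation over 56 splits (scipy 1.17.1). The fitting steps were tested on simulated data with changes of known size. They recovered 8.5% of 2-fold and 37.2% of 4-fold changes (94 genes tested for each), with 4 false calls among 14698 genes tested. Against wild type replicates 4 and 5 alone they recovered 0% and 16.3%. A gene or list without a call may therefore still differ between the groups. Same-numbered libraries did not deviate together, so the replicate numbers were not used as pairs.

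Named genes were Gli1 and Pdgfra, the Hedgehog lists, up to 5 called members of each list with the smallest p (or the 2 most abundant where none was called), the 15 largest rises and falls among well expressed genes without overlap, and the 25 most abundant genes of each group. Pi16, Svep1, Spry2, Hes1, Btg2, Junb, Maff, Egr1, Jun, Col1a1 and Col3a1 were named after their values were seen. The comparison and the gene lists were chosen with earlier results of these data known. Genes with near-identical copies are uncertain, among them C4a, C4b, H2-Q4, Hspa1a, Rn7s1, Rn7s2, Cwc22, Actb, Tmsb4x and ribosomal protein genes. Some genes that met these rules are not reported here.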

Additional observations from a re-analysis of the deposited data

Results flagged for a closer look

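By Dixon's criterion for groups of 5, 1 wild type library stood apart from the other 4 in 5 of the measures examined, which were 110 genes and 44 list sums or makeup values. Chance meets the criterion in about 1 in 20 groups. Bmp4, a BMP ligand gene, was highest in wild type replicate 5 with 56.38 CPM. Cygb, the cytoglobin gene, was highest in wild type replicate 1 with 1319 CPM. H2-Q4 was lowest in wild type replicate 4 with 37.4 CPM, while Rn7s1, a signal recognition particle RNA gene, was highest there with 182.7 CPM. The summed pancreatic markers were highest in wild type replicate 3 with 12.54 CPM. Groups of 3, such as Gli1 uninjured, were not examined in this way.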

How the results depend on the processing

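All 879 calls kept their direction in every other setting in which they were tested. The number of genes called higher and lower was 641 and 1298 (1939 in all) with DESeq2, 188 and 256 (444) with limma voom, 110 and 297 (407) against wild type replicates 1 to 3 alone, and 0 and 5 (5) against replicates 4 and 5 alone. Against those 2 libraries 768 genes were higher and 1529 lower at an unadjusted p under 0.05. With the GC and length correction 631 were higher and 468 lower (1099), and 705 of the 879 were among them. Leaving out single libraries gave 147 to 338 higher, 324 to 763 lower and 474 to 1101 in all. Keeping every row gave 291 and 770, and without Xist and chromosome Y genes 290 and 583. The libraries' replicate numbers do not pair them, since deviations of same-numbered libraries correlated at -0.155, 0.0425 and 0.0314. A replicate block gave 47 higher and 170 lower calls (217), of which 193 were among the 879. Some list medians changed sign. The Wnt list's 0.19 became -0.16 with limma voom and -0.20 with the replicate block, the smooth muscle list's 0.39 became -0.54 and -0.31, and the endothelial list's 0.26 became -0.68 and -0.45, or -0.83 to 0.47 without single libraries. The cholangiocyte list's 1.80 ranged from -1.25 without Gli1 uninjured replicate 3, which also gave the -0.83, to 2.25. With the GC and length correction the BMP and TGF-beta list's -0.11 became 0.17 and the growth factor list's -0.13 became 0.068. Against wild type replicates 1 to 3 alone, Cdon, Col5a2, Cd34, Pi16, Ces1d, Wif1, Bmpr2, Fmod, H2-T23, Sdhd, Krt8, Msln, Gsn, Igkc, Actb and Maff were not called. Neither were the hepatocyte markers Cyp2e1 and Ahsg. The cause of these changes was not tested. At this depth a gene with no count in any Gli1 uninjured library could be present at up to 0.0511 CPM (3 counts over the group, counting error only).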
